A study of Mus musculus with 4 samples.

Results

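Transcripts of the EGF receptor (ErbB) family were followed in cells of the colon surface and of the crypts in mice fed heme. The set comprised the ligand genes Areg, Ereg, Hbegf, Btc, Tgfa, Egf and Nrg1 and the receptor genes Egfr, Erbb2 and Erbb3, chosen by name. A gene was measured through the probe sets that name it alone in the platform annotation. This gave 9 of the 10 genes, each with 1 probe set, among 19938 genes in all. Areg had no such probe set, and its expression was not analysed here.

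The animals were male C57BL/6 mice aged 11 weeks, and all were fed a Western-style diet low in calcium with 40% of its energy as fat for 14 days. Heme, the iron porphyrin of red meat, was present at 0.5 µmol/g in the feed of 3 mice, and 4 mice received the same feed without it. Surface and crypt cells were cut from frozen colon rolls by laser capture microdissection, which lifts chosen cells from a section under a microscope. RNA was pooled across mice before labelling, which gave 1 array each for heme surface, control surface, heme crypt and control crypt. Both compartments of a diet were taken from the same animals.

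ErbB receptors are tyrosine kinases of the cell membrane that pair up when a ligand binds and then drive the RAS-ERK and PI3K-AKT cascades. Erbb2 has no known ligand of its own and acts as a partner, whereas Erbb3 binds neuregulins and signals mainly through its partners because its own kinase is weak. The ligands are made as membrane-anchored precursors and are released by ADAM metalloproteases. In the intestinal epithelium this pathway is known for sustaining the division of crypt progenitors and for repair after injury.

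Values are RMA log2 expression values, in which 1 unit is a 2-fold difference. With 1 array in each group there was no replicate check, and neither an SD nor a p-value could be given. A difference was counted as higher or lower when it was at least 2-fold and at least 1 of the compared arrays reached 5.75, the median of all gene values and here called the floor. This is a rule of size and not a test, and precision is limited by the number of arrays. In pooled tissue, fewer cells of a type and less RNA per cell cannot be told apart. The dissection labels were checked against marker genes on the control diet. There, 9 of 10 surface colonocyte markers were higher in surface than in crypt cells, with a median difference of 4.49. All 8 crypt base and progenitor markers that reached the floor, and all 9 mitotic markers measured, were lower in surface cells, with medians of -2.38 and -1.86.

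On heme, most ligand genes read above control in surface cells and the receptor genes read somewhat below it. Ereg and Nrg1 passed the size rule as higher, and Hbegf and Btc lay just under it. These were 2 of the 8 family genes that reached the floor in this comparison, while 3.62% of 10282 genes were higher by the same rule and 2.01% were lower. The 5 ligand genes at the floor all had differences above 0 (median 0.98), and the 3 receptor genes all had differences below 0 (median -0.62). The ligand split depends on the floor. Egf, the other ligand gene measured, differed by -0.80 with both surface arrays below the floor, and Ereg reached the floor through the heme array alone. Over all genes the median was -0.02, and 48.5% of genes lay above 0.

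Ereg encodes epiregulin, a ligand of Egfr and Erbb4 known for a role in epithelial repair. Its probe set (10523175) read 8.55 on the heme surface array, against 5.01 on the control surface array, and 5.04 on the heme crypt array, against 4.98 on the control crypt array. Only the heme surface value reached the floor, and the other 3 arrays lay within 0.06 of each other. The surface difference was 3.54 (11.6-fold), which placed Ereg at rank 16 from the highest among 10282 genes. Because the control value lay below the floor, the size of this difference is uncertain, and with log2(2^value + 32), a scale that damps differences between low values, it was 2.66.

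Nrg1 encodes neuregulin-1, the ligand of Erbb3 and Erbb4. Its values were 7.97 on the heme surface array and 6.30 on the control surface array, with 4.95 on the heme crypt array and 5.32 on the control crypt array (probe set 10578045). Both surface values lay above both crypt values, which were below the floor. The surface difference of 1.68 (3.19-fold) ranked 123 of 10282, and it was 1.36 on the damped scale. Isoforms of Nrg1 were not told apart by the single probe set.

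Hbegf encodes heparin-binding EGF-like growth factor, a ligand of Egfr and Erbb4 that is induced by stress and wounding in many epithelia. It read 8.16 in heme surface cells against 7.18 in control surface cells, and 5.67 in heme crypt cells against 5.51 in control crypt cells (probe set 10458340). The surface pools were high and the crypt pools were below the floor. Its surface difference of 0.98 (1.98-fold, rank 389) missed the 2-fold line. It was 0.85 on the damped scale, and it was 1.15 when arrays were centred on ribosomal protein genes and 1.03 after cyclic loess.

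Btc encodes betacellulin, a ligand of the same receptors. It read 7.13 in heme surface cells against 6.15 in control surface cells, and 5.73 in heme crypt cells against 6.07 in control crypt cells (probe set 10531274). The heme surface array stood above the other 3, which spanned 0.42 on the log2 scale. The heme crypt value lay just under the floor. The surface difference was 0.98 (1.97-fold, rank 392). It was 0.74 on the damped scale, and it was 1.14 with ribosomal protein centring, 1.09 after cyclic loess and 1.03 after quantile normalization.

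Tgfa, encoding transforming growth factor alpha, a ligand of Egfr, had 8.58 in heme surface cells against 8.16 in control surface cells, and 7.27 in heme crypt cells against 7.38 in control crypt cells (probe set 10539692). All 4 values were above the floor, with the surface pools on top. The heme difference was 0.42 in surface cells and did not pass the size rule.

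Egf, encoding the epidermal growth factor precursor, ran the other way. Its values were 4.81 in heme surface cells against 5.62 in control surface cells, and 5.77 in heme crypt cells against 6.66 in control crypt cells (probe set 10502105). Both heme values were below the control value of their compartment, by -0.80 in surface cells, where neither array reached the floor, and by -0.89 in crypt cells. Neither difference passed the size rule.

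**Figure D1:**
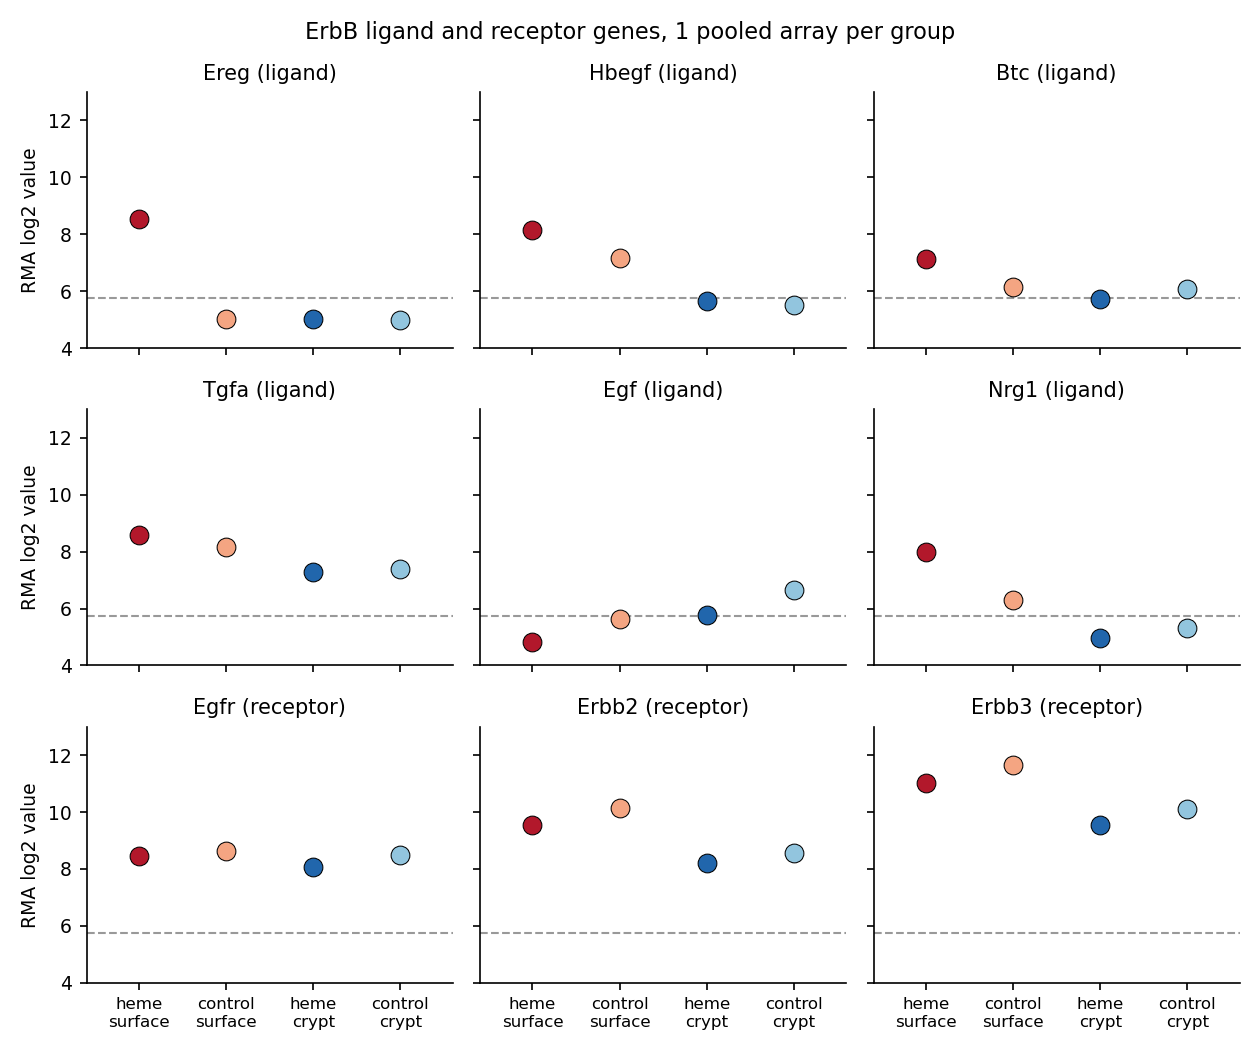
RMA log2 value of each family gene (y axis) on the 4 pooled arrays (x axis), with 1 point per array and the floor of 5.75 as a dashed line. Ereg reached the floor on the heme surface array alone (8.55), and Erbb3 spanned 9.53 to 11.7; levels of different genes come from different probes and are not comparable.

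The receptor genes had values above the floor on all 4 arrays. Erbb3 read 11.0 in heme surface cells against 11.7 in control surface cells, and 9.53 in heme crypt cells against 10.1 in control crypt cells (probe set 10373467). Erbb2 read 9.54 in heme surface cells against 10.2 in control surface cells, and 8.22 in heme crypt cells against 8.55 in control crypt cells (probe set 10380896). For both genes the heme pool was below the control pool in each compartment, and surface pools were above crypt pools. The heme differences of Erbb3 were -0.65 in surface cells and -0.59 in crypt cells, and those of Erbb2 were -0.62 and -0.33. None of them passed the size rule.

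Egfr, the receptor shared by most of the ligands above, varied least. It read 8.44 in heme surface cells against 8.63 in control surface cells, and 8.08 in heme crypt cells against 8.51 in control crypt cells (probe set 10374366). Its 4 values spanned 0.55 on the log2 scale, and the heme differences were -0.19 in surface cells and -0.42 in crypt cells.

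In crypt cells no family gene passed the size rule on heme. With 6 family genes at the floor and 1.78% of 10491 genes higher and 1.19% lower, a count of 0 does not set the family apart. All 6 had differences below 0, with a median of -0.38 against 0.01 for all genes. This uniform sign depends on the floor. Among family genes with both crypt arrays below it, Ereg differed by 0.06, Hbegf by 0.15 and Nrg1 by -0.37. With ribosomal protein centring Tgfa had 0.09 in place of -0.11, and the median became -0.22 while that of all genes became 0.24. In the same comparison, 7 of 9 mitotic markers and 5 of 10 surface colonocyte markers were higher in the heme crypt pool. All 13 smooth muscle and fibroblast markers lay below 0, 3 of them past the size rule, with a median of -0.72. The log2 of their summed level was 11.8 in heme crypt cells and 12.6 in control crypt cells, and no marker of the list was below the floor on all arrays. Medians were also below 0 for endothelial (-0.68), immune (-0.62) and tuft cell markers (-0.61). The same held for goblet and deep crypt secretory (-0.47), crypt base and progenitor (-0.36) and enteroendocrine markers (-0.29). The part of these cell types in the family's crypt values was not tested.

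**Figure D2:**
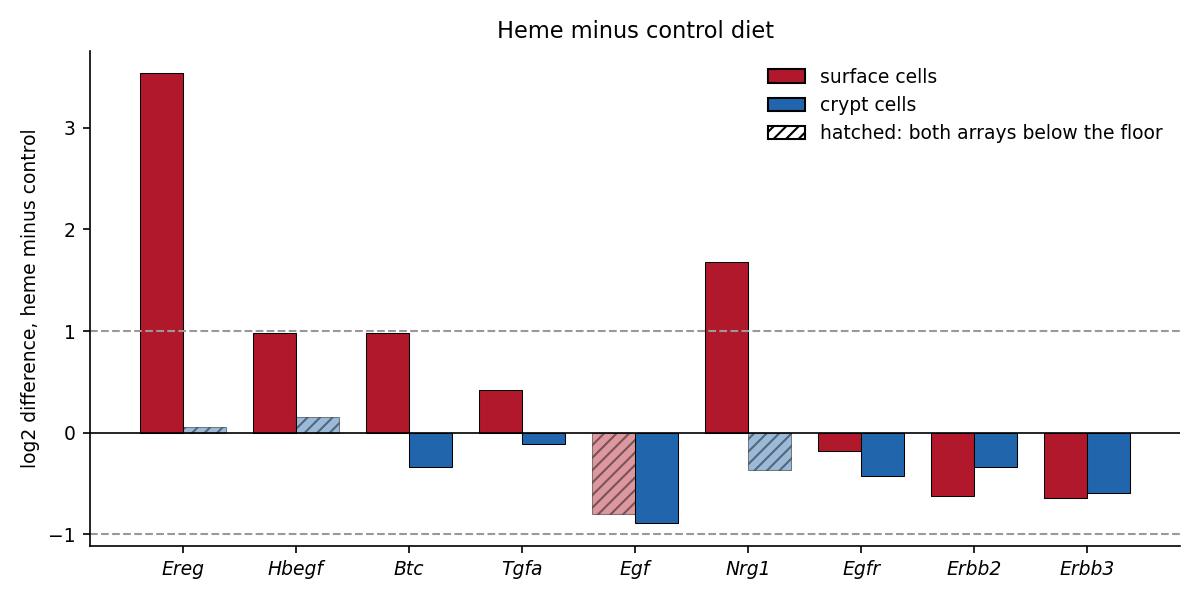
Log2 difference between heme and control (y axis) for each family gene (x axis) in surface cells (red) and crypt cells (blue); dashed lines mark 2-fold and hatched bars have both arrays below the floor. Ereg (3.54) and Nrg1 (1.68) cross the upper line in surface cells, and no bar crosses a line in crypt cells.

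Subtracting the heme difference in crypt cells from that in surface cells compares the diet effect between the compartments. The result passed the size rule for 3 family genes, all ligands, against 3.29% of 11147 genes higher and 2.17% lower. These were Ereg at 3.48 (rank 8 from the highest), Nrg1 at 2.04 (rank 58) and Btc at 1.32 (rank 193). Hbegf had 0.83 and Tgfa 0.53. Egf had 0.09, and the receptor genes lay between -0.28 for Erbb2 and 0.24 for Egfr. On the damped scale Btc had 0.96 and no longer passed. This difference has no test, because each of its 4 terms is 1 array.

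**Figure D3:**
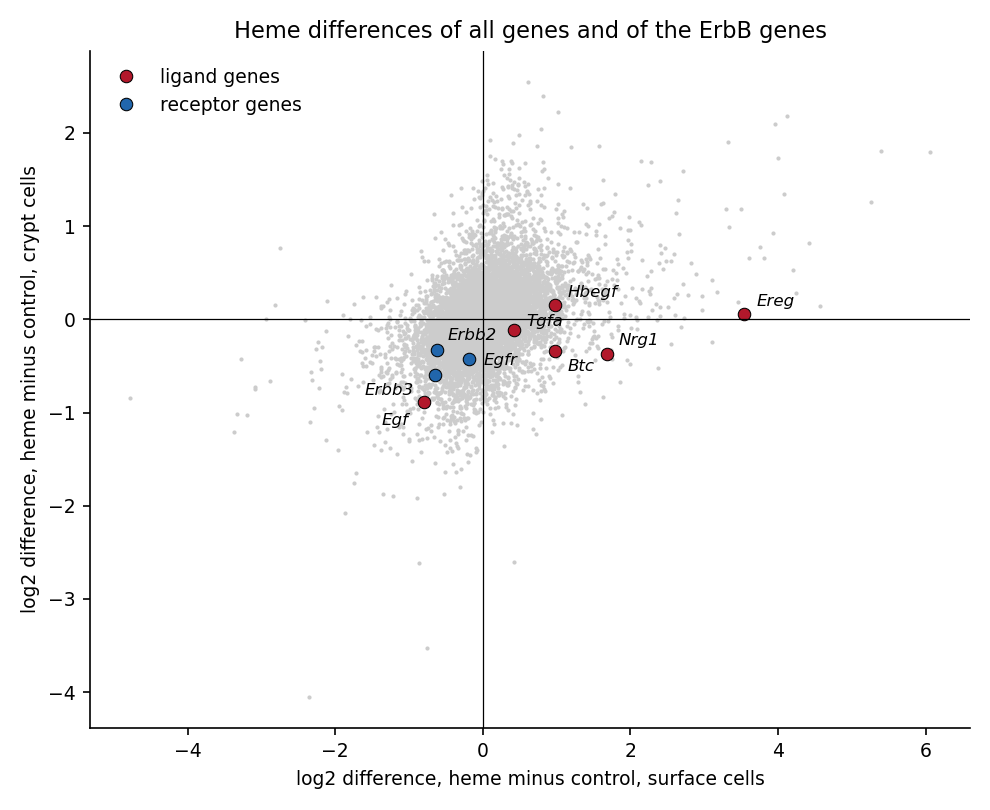
Log2 difference between heme and control in surface cells (x axis) and in crypt cells (y axis), with 1 grey point for each gene that reached the floor in either comparison and coloured points for the family genes. Ereg lies far right at 3.54 and near 0 in crypt cells (0.06), Nrg1 and Btc lie to the right and below 0 on the y axis, and the 3 receptor genes lie below 0 on both axes.

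Cell types that could add ligand RNA to the surface pool were followed through their markers. Of 12 smooth muscle and fibroblast markers at the floor in the surface comparison, none passed the size rule, 3 lay above 0, and the median was -0.52. The log2 of their summed level was 12.0 in heme surface cells and 12.3 in control surface cells. Among them, Pdgfra read 9.93 in heme surface cells against 9.32 in control surface cells. In crypt cells it read 7.29 on heme against 8.01 on control. With its crypt difference subtracted from its surface difference, Pdgfra had 1.33 and passed the size rule, as Ereg, Nrg1 and Btc did. It was the 1 of 13 smooth muscle and fibroblast markers to do so. By the same subtraction, 2 of 9 immune and 1 of 8 endothelial markers were higher. By sign, 11 of 13 smooth muscle and fibroblast (median 0.42), 8 of 8 endothelial (0.64) and 8 of 9 immune markers (0.36) lay above 0. Over all genes 47.8% did, with a median of -0.02. Also higher were 2 of 8 goblet and deep crypt secretory, 2 of 8 crypt base and progenitor and 1 of 7 enteroendocrine markers, and the enteric neuron marker Ret (1.04). Lower were 5 of 9 mitotic and 3 of 10 surface colonocyte markers. In the surface comparison itself, none of 9 immune markers passed the rule (median -0.16, summed level 11.3 in both surface pools). Of the 13 measured, 4 were below the floor on all arrays. Of the mast cell, basophil and innate lymphoid markers, 6 of 7 were below the floor on all arrays, as were 5 of 6 enteric neuron and glia markers. The exception among the last was Ret, the receptor gene of enteric neurons, which differed by 0.83. None of 8 endothelial markers passed the rule in the surface comparison (median -0.06). Surface colonocyte markers had a median of 0.09, and Tmigd1 (2.28) was the 1 of 10 that was higher. Other epithelial types had members past the rule. Of 8 goblet and deep crypt secretory markers, Spink4 (1.56) and Reg4 (1.23) were higher and Kit (-1.03) was lower, with a median of -0.02. Of 7 enteroendocrine markers, Gcg (1.54) and Insl5 (1.03) were higher and Chga (-1.19) was lower, with a median of 0.46. The 4 tuft cell markers at the floor had a median of -1.12, and 3 passed as lower, namely Sh2d6 (-1.07), Trpm5 (-1.17) and Dclk1 (-1.34). The part of these cell types in the family's surface values was not tested.

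Surface and crypt cells were then compared within each diet. These comparisons use the same 4 arrays as the heme comparisons and are not independent of them. On heme, 7 of 9 family genes were higher in surface than in crypt cells and none was lower, where 15.3% of 10698 genes were higher and 16.5% lower. Their median was 1.40, against -0.05 for all genes. The ligand genes Ereg (3.51), Nrg1 (3.02), Hbegf (2.50), Btc (1.40) and Tgfa (1.31) and the receptor genes Erbb3 (1.49) and Erbb2 (1.32) made up this count. Egfr differed by 0.36 and Egf by -0.95. In the same comparison 4 of 8 endothelial markers were higher and all 8 lay above 0 (median 1.09). Of 8 immune markers 2 were higher (median 0.62). Of 12 smooth muscle and fibroblast markers, 1 was higher (Pdgfra, 2.65) and 1 lower, with a median of -0.15. The part of these cell types in the family's differences was not tested.

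On the control diet, 3 of the 8 family genes at the floor were higher in surface cells and 1 was lower, where 12.0% of 10864 genes were higher and 13.5% lower. Hbegf (1.67), Erbb2 (1.60) and Erbb3 (1.55) were higher. Egf (-1.04) was lower, but it did not pass on the damped scale (-0.72) or after quantile normalization (-0.98), and it had 0.11 on control and 0.16 on heme when arrays were centred on ribosomal protein genes. That centring moved the median of all genes to 1.16 on control and 1.11 on heme, and the share of called genes that were higher to 97.8% on control, against 47.1% without it, and to 95.1% on heme, against 48.1%. Both Egf values lay below those medians. Nrg1 (0.98), Tgfa (0.78), Egfr (0.12) and Btc (0.08) did not pass the rule on control, although Nrg1 passed it after cyclic loess (1.04) and after quantile normalization (1.04). Ereg was below the floor in both compartments. On this diet 3 of 8 endothelial markers were higher in surface cells and 7 lay above 0 (median 0.62). None of 9 immune markers passed the rule (median 0.24). Of 13 smooth muscle and fibroblast markers, 1 was higher (Pdgfra, 1.32) and 5 were lower, with a median of -0.36.

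**Figure D4:**
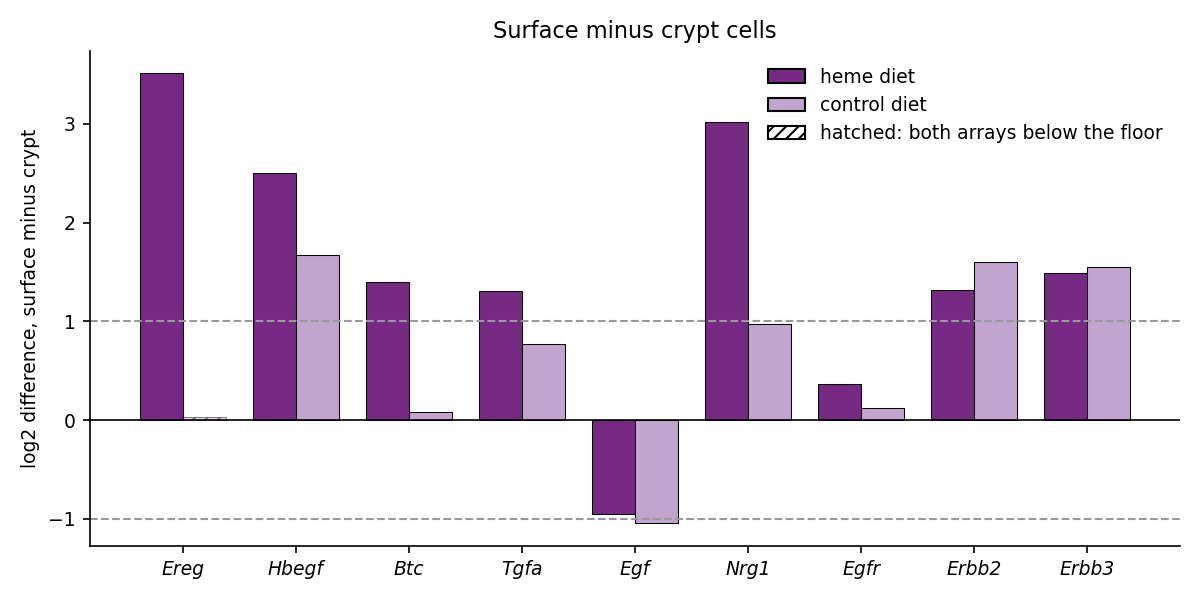
Log2 difference between surface and crypt cells (y axis) for each family gene (x axis) on the heme diet (dark) and the control diet (light); dashed lines mark 2-fold and the hatched bar has both arrays below the floor. Erbb2 and Erbb3 are above the upper line on both diets, while Ereg, Btc, Tgfa and Nrg1 are above it on heme and not on control, where Nrg1 missed it narrowly (0.98), a contrast that was not tested.

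Upstream sequences were read for 6 family genes from RefSeq's GRCm38.p6 promoter table, in windows of 250 bases before to 50 bases after the start of the gene. The table held no window for Ereg, Nrg1 or Erbb3, and Hbegf was left out of the search. Shown 5′ to 3′ are Btc and Tgfa, ligand genes that passed the size rule between the compartments on heme, with surface above crypt, and Erbb2, a receptor gene that did so on both diets. Capitals mark GC boxes (GGGCGG, either strand).
Btc, chr5:91402945-91403244, minus strand: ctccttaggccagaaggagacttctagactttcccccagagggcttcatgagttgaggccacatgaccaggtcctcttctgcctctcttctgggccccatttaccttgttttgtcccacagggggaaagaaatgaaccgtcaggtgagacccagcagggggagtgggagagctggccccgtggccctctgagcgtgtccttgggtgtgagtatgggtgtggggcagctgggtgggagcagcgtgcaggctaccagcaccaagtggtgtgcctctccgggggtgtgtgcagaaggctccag
Tgfa, chr6:86194972-86195271, plus strand: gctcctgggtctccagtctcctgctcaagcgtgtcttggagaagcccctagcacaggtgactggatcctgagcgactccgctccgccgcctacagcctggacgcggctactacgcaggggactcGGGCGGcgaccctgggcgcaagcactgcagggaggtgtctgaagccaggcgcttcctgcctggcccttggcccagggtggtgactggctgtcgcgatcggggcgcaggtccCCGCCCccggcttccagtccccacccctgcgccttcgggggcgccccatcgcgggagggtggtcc
Erbb2, chr11:98412234-98412533, plus strand: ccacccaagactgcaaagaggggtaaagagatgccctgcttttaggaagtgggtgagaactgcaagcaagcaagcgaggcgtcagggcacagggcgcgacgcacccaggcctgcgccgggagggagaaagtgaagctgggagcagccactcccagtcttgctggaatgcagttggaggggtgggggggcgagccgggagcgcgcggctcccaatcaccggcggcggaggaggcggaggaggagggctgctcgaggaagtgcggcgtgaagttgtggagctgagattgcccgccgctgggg
Tgfa held 2 GC boxes, whose first bases lie 126 and 15 bases before the start, and the windows of Btc and Erbb2 held none. GC boxes were present in 35.7% of 32841 windows of the same length. None of the 3 windows held an AP-1 motif (TGANTCA, in 7.81% of windows), a cAMP response element (TGACGTCA, in 1.79%) or the core of the antioxidant response element (TGACNNNGC, in 12.4%), each searched on both strands. Of the windows read but not shown, that of Areg, a gene without an expression value here, held 2 GC boxes and a cAMP response element. The first base of that element lies 61 bases before the start. The window of Egfr held 1 GC box, and those of Egf held none of the motifs searched. Matches are letters in a window and not measured binding.

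Because Ereg and Nrg1 passed the heme rule, the genes with the most similar profile over the 4 arrays were found for each. Likeness was the Euclidean distance between log2 profiles after the mean of each gene was subtracted, over 10691 genes. Nearest to Ereg were Ccdc87 (distance 0.16), Dmp1 (0.40), which encodes a matrix protein of bone and dentin, and Ugt8a (0.44), which encodes a galactosyltransferase for ceramide. Ccdc87 read 7.55 in heme surface cells against 4.10 in control surface cells, and 4.04 in heme crypt cells against 3.85 in control crypt cells. Nearest to Nrg1 were Sh3kbp1 (0.20), Fyb2 (0.30) and Prdm1 (0.33), which encodes a transcriptional repressor. Sh3kbp1 encodes an adaptor that takes part in the uptake of activated receptors. It read 8.52 in heme surface cells against 7.13 in control surface cells, and 5.67 in heme crypt cells against 6.01 in control crypt cells. With 4 arrays, such likeness has few degrees of freedom, and on the damped scale 1 of the 3 genes was shared for Ereg and 1 for Nrg1.

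The remaining genes of the EGF family were low. Of Epgn, Nrg2, Nrg3, Nrg4 and Erbb4, only Nrg2 reached the floor on any array, with 5.91 in heme surface cells and 5.82 in control surface cells. Erbb4, which encodes a further receptor for Ereg, Hbegf, Btc and Nrg1, read between 3.91 and 4.32 on the 4 arrays.

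Genes of ligand release and of signal transmission did not pass the size rule on heme, which for lists of this length is near the shares over all genes given above (3.62% higher and 2.01% lower in surface cells, 1.78% and 1.19% in crypt cells). None of 10 genes of ligand shedding and processing at the floor did so in surface cells (median -0.03) or in crypt cells (median -0.04). Adam17, encoding the main sheddase of Ereg, Hbegf and Tgfa, read 8.25 in heme surface cells against 8.20 in control surface cells. Adam10, encoding the sheddase of Egf and Btc, read 9.71 in heme surface cells against 9.45 in control surface cells. The largest difference of the list in surface cells was -0.72, for the rhomboid protease gene Rhbdl2. None of 24 genes of EGF receptor signal transduction passed either (medians -0.08 in surface and -0.03 in crypt cells), with Pik3r1, encoding a regulatory subunit of PI3 kinase, at -0.93 in surface cells. The list had 30 genes, of which 24 were measured.

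Negative regulators of EGF receptor and ERK signalling differed in both directions in surface cells. Of 24 negative regulators, 4 were higher and 2 were lower on heme, beside 3.62% and 2.01% of all genes, with a median of 0.02 against -0.02 for all genes. The ERK phosphatase genes Dusp5 (1.69) and Dusp6 (1.47), the RAS-ERK antagonist gene Spry4 (1.66) and Sh3kbp1 (1.40) were higher. The receptor phosphatase gene Ptprj (-1.37) and the ubiquitin ligase gene Cbl (-1.24), which marks active receptors for breakdown, were lower. Dusp6 read 9.95 in heme surface cells against 8.47 in control surface cells, and 7.58 in heme crypt cells against 7.84 in control crypt cells, so the heme surface pool was the highest. In crypt cells none of the 24 passed, and the largest difference was 0.81 for Spry4.

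Genes known to respond to ERK and EGF receptor signalling were higher in heme surface cells in 7 of 20 cases and lower in none, beside 3.62% and 2.01% of all genes, with a median of 0.41. They were Plaur (2.55), encoding the urokinase receptor, Phlda1 (2.39), Ier3 (2.07), the prostaglandin synthase gene Ptgs2 (1.91), and the early-response transcription factor genes Egr1 (1.81), Egr2 (1.44) and Fos (1.19). By sign alone, 12 of the 20 genes lay above 0. The largest differences below 0 were those of Myc (-0.74), Fosb (-0.68) and Ccnd1 (-0.55). Phlda1 read 9.97 in heme surface cells against 7.58 in control surface cells, and 7.95 in heme crypt cells against 7.81 in control crypt cells. Egr1 read 8.62 in heme surface cells against 6.81 in control surface cells, and both crypt values were below the floor. Ier3 and Egr2 reached the floor on the heme surface array alone. On the damped scale Egr2 had 0.86 and did not pass. In crypt cells none of 16 such genes at the floor passed, and the median was 0.06. These genes also respond to other stimuli, and in the same surface comparison all 11 NRF2 target genes measured were higher, with a median of 2.66. What share of the response genes' difference goes with the ErbB ligands was not tested.

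**Figure D5:**
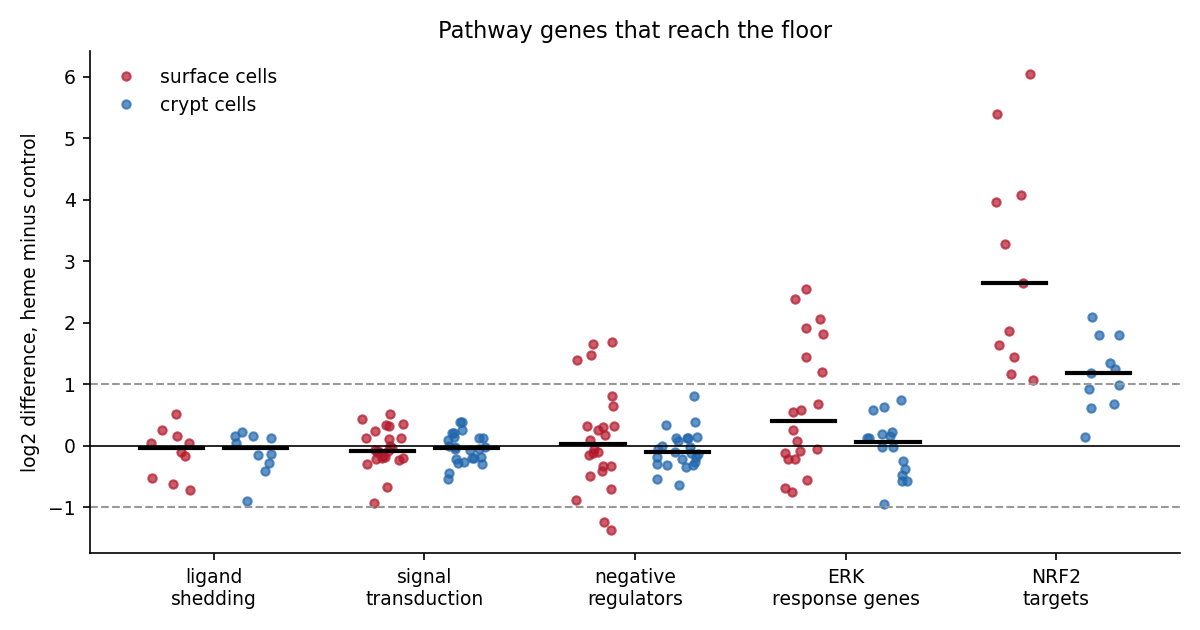
Log2 difference between heme and control (y axis) for each gene at the floor in 5 pathway lists (x axis), in surface cells (red) and crypt cells (blue), with black bars at the medians and dashed lines at 2-fold. Shedding and transduction genes lie between the lines in both compartments, while 7 ERK response genes and all 11 NRF2 targets lie above the upper line in surface cells.

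The pathway lists were also compared between the compartments, where surface cells had 15.3% of all genes higher and 16.5% lower on heme, and 12.0% and 13.5% on the control diet. On the control diet 12 of 20 ERK response genes were higher in surface than in crypt cells and 4 were lower, among them Fos (3.01), Ptgs2 (2.82), Myc (-2.76) and Etv5 (-2.70). The 12 ranged from 6 to 15 across the alternatives. On heme the counts were 14 and 4 of 22. Of 24 signal transduction genes 3 were higher on heme and 2 on control, and of 10 shedding genes 2 on each diet, and none was lower, so the counts of higher genes were near the shares over all genes. Of the negative regulators, 8 of 24 were higher and 2 lower on heme, and 5 and 2 of 23 on control. Among them, Errfi1, encoding an inhibitor of the Egfr kinase, was higher in surface cells (3.04 on heme and 2.41 on control). Lrig1, encoding an ErbB inhibitor that also marks stem cells, was lower (-3.41 on heme and -2.84 on control). Errfi1 read 11.0 in heme surface cells against 10.7 in control surface cells, so its surface level lay high on both diets. Eps8, encoding a substrate of the Egfr kinase, was also higher in surface cells (2.41 on heme and 2.28 on control).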

How the data were processed

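The values analysed were 4 columns of log2 expression values, 1 pooled array each, which the authors deposited for 35556 probe sets. The submitters' processing notes name RMA as the method, applied to arrays of 100 ng of total RNA labelled with an Affymetrix whole-transcript kit, per the labels' protocols. RMA corrects background, quantile-normalizes probes and summarises each probe set. Neither its version nor the set of arrays it was run on is stated in these sources. Medians of the arrays lay between 5.42 and 5.54.

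Of the probe sets, 21789 had 1 gene symbol in the platform annotation, 1621 had several and 12146 had none. Symbols were updated through gene identifiers to the GRCm38.p6 gene table (21698 matched). Each of the 19938 genes is the mean of its probe sets.

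The comparisons were differences of log2 values under the size rule, with no test. Members, gene lists and markers were chosen with earlier results of these data known. Named were all members, up to 4 genes of each list with the largest differences, markers past the rule, and the 3 nearest profiles of members past the heme rule. Other genes named (Adam17, Adam10, Erbb4, Fosb, Ccnd1, Myc for heme in surface cells, and list genes past the rule beyond the first 4) were added after their values were seen. Alternatives were a damped scale, log2(2^value + 32), other floors, fold thresholds, scalings and probe set summaries. Python 3.11.15 with numpy 2.4.6, pandas 2.3.3 and matplotlib 3.10.9, and limma 3.58.1 under R 4.3.3, were used.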

Additional observations from a re-analysis of the deposited data

Results flagged for a closer look

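Nrg1 and Btc are given here because their heme differences had opposite signs in the compartments and the gap between them passed the size rule. Tgfa also had opposite signs (0.42 in surface cells and -0.11 in crypt cells), with a gap of 0.53 that did not pass. Nrg1 differed by 1.68 in surface cells and by -0.37 in crypt cells, where both arrays were below the floor, a gap of 2.04 on the log2 scale. Btc differed by 0.98 in surface cells and by -0.34 in crypt cells, where the heme array was just below the floor, a gap of 1.32. With 1 array in each group, neither gap was tested.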

How the results depend on the processing

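No paired analysis was possible because the groups hold 1 array each and share no replicate numbers beyond that, so no replicate could be left out either. An additive fit over the 4 arrays, whose error would be the difference between compartments, was not run. Of 450 recomputed family differences, 413 stayed on their side of the size rule as set in that alternative, and 3 changed sign, all with ribosomal protein centring (Egf on both diets and Tgfa in crypt cells). The 413 include 45 for each of the other probe set summaries, which could change nothing because each family gene had 1 probe set. Other floors and fold thresholds moved the rule and not the differences. For heme against control in surface cells, 2 family genes were called, both higher. At 1.5-fold 6 were called, of which 4 were higher and 2 lower (Erbb2 and Erbb3). With ribosomal protein centring and with cyclic loess 4 each were called, all higher. In crypt cells, 2 were called at 1.5-fold (Egf and Erbb3, both lower) in place of 0. For surface against crypt on heme, 3 remained of 7 at 3-fold. For surface against crypt on control, 4 were called, against 2 with the floor at the 75th percentile, 2 at 3-fold and 7 with ribosomal protein centring, under which Egf reversed to 0.11. Changes with ribosomal protein centring, the Egf reversal among them, follow from the centring, which adds the same constant to every gene in a comparison. Those at other fold thresholds and with the other floor follow from moving the line or the floor. For cyclic loess the cause was not tested.

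Over all genes, 579 were called for heme in surface cells, 312 in crypt cells, 3400 for surface against crypt on heme, 2765 on control and 609 for the difference between compartments. At 1.5-fold these became 1898, 1205, 5620, 4932 and 2038, and at 3-fold 196, 47, 1603, 1188 and 155. With ribosomal protein centring, 7040 were called on heme and 6963 on control for surface against crypt, and among genes called for heme 79.5% were higher in surface cells (64.2% without it) and 85.4% in crypt cells (59.9%). The damped scale called 158 in crypt cells and 359 between compartments, and the higher floor 199 and 392. Across the alternatives, 5 to 9 ERK response genes were higher in heme surface cells, against 7 as reported, and 2 to 6 negative regulators were higher and 0 to 4 lower, against 4 and 2. Signal near background limits Ereg outside heme surface cells, Nrg1 and Hbegf in crypt cells, Btc in heme crypt cells and Egf in surface cells.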

Other observations

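Ereg lies on chromosome 5 in a row of ligand genes, in the order Epgn, Ereg, Areg and Btc in GRCm38.p6, and its neighbours were looked at after its values had been seen. Epgn, encoding the ligand epigen, was below the floor on all 4 arrays. Beyond the row, Mthfd2l, which precedes Epgn, read 6.05 in heme surface cells against 6.13 in control surface cells, a difference of -0.08. Parm1, which follows Btc, read 10.2 in heme surface cells against 10.3 in control surface cells, a difference of -0.06. The outer neighbours Cxcl2 (0.02, below the floor on all arrays) and Rchy1 (0.15) were also far below 2-fold. Of the 7 genes measured from Cxcl2 to Rchy1, Ereg passed the size rule for heme in surface cells, and Btc, at 0.98, missed it narrowly and passed it with ribosomal protein centring, cyclic loess and quantile normalization.

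A probe set named for both Erbb2 and Sympk was not used for Erbb2. It read 7.75 in heme surface cells against 7.57 in control surface cells, and 7.20 in heme crypt cells against 6.73 in control crypt cells. Its heme differences of 0.18 in surface and 0.47 in crypt cells were above 0, whereas those of the probe set naming Erbb2 alone were -0.62 and -0.33.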
